A study of Mus musculus with 72 samples.

Results

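The introns described here are those of genes whose intronic RNA in the nucleus of mouse embryonic stem cells was labeled late, with a share of new RNA under 0.6 after 60 min of metabolic labeling. They were chosen from the 4 nuclear libraries of 60 min (replicates 3 to 6). A gene was measured when its introns held at least 2000 T positions in each of these libraries, and it became a member when the mean of its 4 intron shares lay under 0.6. Of 7951 measured genes, 900 were members and 7051 had a share of 0.6 or more. The share is that of new to total RNA, the percentage of intronic T positions read as C divided by the conversion rate of the library. Since the 60 min nuclear shares chose the members, they are given as a description only.

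The series comprised 72 libraries of poly(A) RNA, all from the mouse embryonic stem cell (mESC) line E14TG2a in 2i + LIF medium. Every culture received 4-thiouridine (4sU), a uridine analog that is read as C after alkylation, and T-to-C (T2C) conversions therefore identify RNA made during labeling. Each of 18 cultures gave a nuclear, a cytosolic, a membrane and a whole-cell library by sequential detergent extraction. The labeling times were 15, 20 and 30 min in replicates 1 and 2, then 20, 40, 60 and 120 min in replicates 3 and 4, whereas replicates 5 and 6 had the times of 60 and 120 min alone, so that replicate pair and time cannot be fully told apart. The labels give 500 µM 4sU for times under 60 min and 100 µM for 60 and 120 min, while the methods of the study place some 60 min cultures at the higher dose and give fewer cultures at the lower dose for 120 min than the labels do. The conversion rates of the nuclear 60 min libraries were 7.66% and 8.29% in replicates 3 and 4 and 3.25% and 3.53% in replicates 5 and 6. At 120 min they were 10.4% and 12.2% against 3.81% and 3.96%, so that the dose of replicates 3 and 4 is uncertain at both times, and no comparison of doses was made. The paper excluded samples labeled at 500 µM for over 60 min, since it found many genes differentially expressed from 120 min onwards. Whether the 120 min libraries of replicates 3 and 4 are such samples was not settled. They were kept here unless stated otherwise.

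Introns are cut out of pre-mRNA by the spliceosome, for most introns while or soon after the gene is transcribed. Some introns of otherwise spliced, polyadenylated transcripts stay in the nucleus much longer. These detained introns are known from genes for splicing factors and other RNA-binding proteins in mESCs, and retained introns at large can be spliced late, exported or lead to decay of the transcript. Because the libraries were made from poly(A) RNA, intronic reads here came from RNA captured by a poly(A) stretch, and whether that stretch was a poly(A) tail or lay inside an intron cannot be told apart in the files. The T2C files pool the introns of a gene, so that which intron holds the old RNA is not resolved.

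Splice sites are shown for 5 members that encode splicing factors or are known for detained introns, 1 intron each, to show what such splice sites look like. Sequences are from GENCODE M21 transcripts (build GRCm38) of the type retained intron. The intron is the longest of each gene that lies whole inside an exon of such a transcript. Capitals mark the first 6 and the last 2 bases of the intron, and 3 exonic bases flank it. The introns shown are chr12:80947866-80949094 of Srsf5 (plus strand, 1229 bases), chr3:158022951-158023242 of Srsf11 (minus strand, 292 bases), chr6:38557381-38557851 of Luc7l2 (plus strand, 471 bases), chr17:37071982-37072143 of Gabbr1 (plus strand, 162 bases) and chrX:101652209-101653975 of Ogt (plus strand, 1767 bases).
Srsf5, 5′ splice site: cagGTTTGTtgaaatacagt
Srsf5, 3′ splice site: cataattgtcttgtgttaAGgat
Srsf11, 5′ splice site: cagGTGATGaaatcttggca
Srsf11, 3′ splice site: gcaaggatgtttctctgcAGgag
Luc7l2, 5′ splice site: caaGTAAGCctatgtttttg
Luc7l2, 3′ splice site: gattatatttgtaatcctAGcat
Gabbr1, 5′ splice site: aagGTGAGGtctggctctcc
Gabbr1, 3′ splice site: gcccaaacgtttgtccatAGatg
Ogt, 5′ splice site: aagGTAGGTgtttgctagaa
Ogt, 3′ splice site: accattgatattgtatttAGaag

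Each of these introns begins with GT and ends with AG. Over all annotated retained introns of this kind, 1088 introns were found in 342 members and 5561 in 2319 of the other measured genes, and 97.3% and 97.7% of them ran from GT to AG. Read in the direction of the gene, the intron began with GTAAGT in 9.01% of the introns of members against 9.91% of the others. It began with GTGAGT in 12.5% against 14.0%. The median length was 224 bases in members and 304 in the others. A retained-intron transcript was annotated for 63.2% of members and for 67.3% of the other measured genes, so that the annotation of such a transcript did not mark the members.

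Reads counted on genes, that is on their exons, lay between 14384152 and 52975732 in the 54 nuclear, cytosolic and membrane libraries. In whole cells, the median CPM (read counts scaled to the library total) of 9 embryonic stem cell markers such as Pou5f1 and Nanog lay between 252 and 1205, against at most 6.81 for markers of fibroblasts, endoderm and neural cells. The nuclear 20 min library of replicate 3 had the highest share of reads on no counted exon of all libraries (34.8%). Intronic reads are among these. The nuclear 60 min library of replicate 3, used by the rule, stood apart in its ratio of intronic to exonic T. Its median log2 ratio over the other measured genes was −0.86, against −2.20 to −2.14 in replicates 4 to 6. Without this library the rule gave 903 genes, of which 841 were members. In whole cells of replicate 6 the median exon share was 0.355 at 60 min and 0.165 at 120 min, against the order of the other replicates, and whole-cell T2C values were left out of the results.

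At 60 min the nuclear intron shares of members spread widely below the limit. Of the 900 members, 31 had a mean share under 0.2, 173 between 0.2 and 0.4, 269 between 0.4 and 0.5, and 427 between 0.5 and 0.6, while the median over all measured genes was 0.885. Just inside the limit were Gm16048 with 0.5998, Neil1, a DNA glycosylase, with 0.5998 and Gm46332 with 0.5999. Just outside were Mutyh, another DNA glycosylase, with 0.6002, 1810009A15Rik with 0.6002 and Xndc1 with 0.6002. The limit thus cuts through a continuous range and not through a gap. The 2 pairs of 60 min replicates, with their different conversion rates, gave 1417 (replicates 3 and 4 alone) and 800 genes (replicates 5 and 6 alone) under the same limit, of which 861 and 717 were members.

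The lower labeling of the members was also seen at times that did not enter their choice. In the 6 nuclear libraries of replicates 1 and 2, which were labeled for 15, 20 and 30 min, 798 of 900 members (88.7%) had an intron share below the median of the other genes in all 6, against 32.9% of the other genes themselves. After 15 min the median intron share was 0.0589 ± 0.00606 in members and 0.148 ± 0.0131 in the others (SD, n = 2 libraries), after 20 min 0.125 ± 0.0370 and 0.345 ± 0.0939 (n = 4). After 30 min it was 0.151 ± 0.0169 and 0.423 ± 0.0436 (n = 2), and after 40 min 0.326 ± 0.00159 and 0.752 ± 0.0167 (n = 2). In every nuclear library the median of the members lay below that of the others.

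At 120 min the median of the members was still below that of the others. The median at 60 min was 0.483 ± 0.0551 (n = 4) for members and 0.909 ± 0.0657 for the others, and at 120 min it was 0.762 ± 0.0312 and 0.959 ± 0.0110. In replicates 3 and 4 the 120 min medians of members were 0.751 and 0.729, and in replicates 5 and 6 they were 0.804 and 0.763. The ratio of members to others was 0.398 at 15 min and 0.363 at 20 min, followed by 0.357 at 30 min and then 0.433 at 40 min. At 60 min, the time that chose the members, it was 0.531, and it was 0.795 at 120 min. Exon shares differed less. In the nucleus the median exon share was 0.0378 ± 0.0159 in members and 0.0724 ± 0.0329 in the others at 20 min, and 0.398 ± 0.0273 and 0.401 ± 0.0384 at 120 min.

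**Figure D1:**
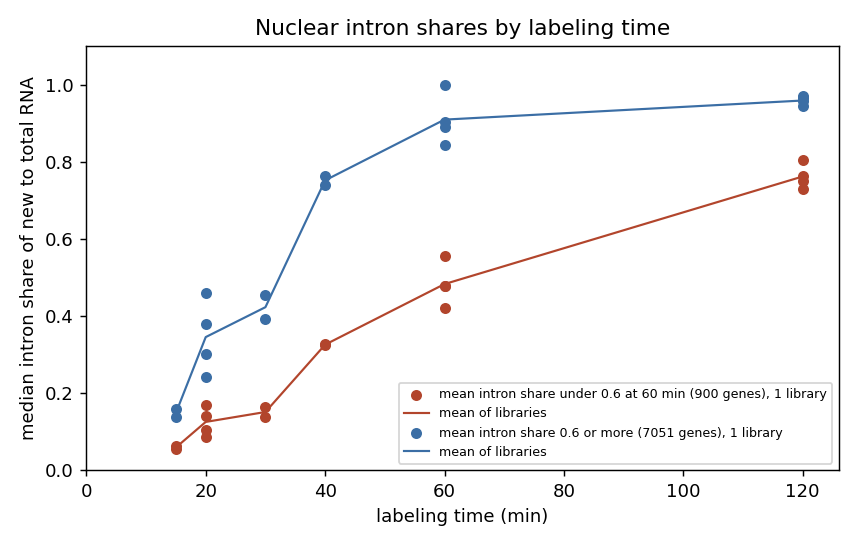
Median share of new to total RNA in introns (y axis, no unit) against labeling time (x axis, min) in the nuclear libraries, 1 point a library, for the 900 members and the 7051 other measured genes, with lines through the mean of the libraries of a time. The members lie below the others in every library, and at 120 min they reach 0.762 against 0.959.

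Intronic RNA of members outside the nucleus was labeled late as well. In the cytosol the median intron share of members was 0.0598 ± 0.00971 at 20 min, 0.352 ± 0.128 at 60 min and 0.620 ± 0.130 by 120 min (n = 4 each), against 0.171 ± 0.0459, 0.826 ± 0.239 and 0.926 ± 0.116 in the others. In the membrane fraction members had 0.0672 ± 0.0157, 0.386 ± 0.0797 and 0.631 ± 0.0788, and the others 0.2 ± 0.0617, 0.865 ± 0.150 and 0.930 ± 0.0732. At each of these times the median of members was lower in the cytosol and in the membrane fraction than in the nucleus. The 60 min means pool unlike replicate pairs. In the cytosol members had 0.244 and 0.240 in replicates 3 and 4, and 0.486 and 0.436 in replicates 5 and 6. The others had 0.626 and 0.618, and 1.08 and 0.985. Members in the membrane fraction had 0.324 and 0.315, and 0.477 and 0.429. A share above 1 is not possible for new over total RNA, which limits the precision of the values in both fractions. These fractions were extracted from the same cultures, so that their values are not independent of the nuclear ones.

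The members were described by function with 16 gene lists, read against the 11.3% (900 of 7951) of all measured genes. No test of a list was made. Of the SR splicing factors, which bind exons and recruit the spliceosome, 3 of 10 measured genes were members (30.0%), namely Srsf10, Srsf11 and Srsf5. Of the Clk kinases, Tra2 factors and SR kinases, which regulate these proteins, none of 8 was a member, and their lowest share was 0.635. Among transcripts known for detained introns, Gabbr1 and Ogt were 2 members of 5 measured genes. The median share of these 5 genes at 60 min was 0.962, above the 0.885 over all measured genes.

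Of the wider list of spliceosome, hnRNP and other RNA-binding proteins, 12 of 80 genes (15.0%) were members, and of m6A, 3′ end processing and export factors 5 of 34 (14.7%). The former include Luc7l2 and Snrnp70, both tied to the U1 particle, the RNA helicases Ddx17 and Ddx39b, Hnrnph1, Ewsr1, Son, Srrm2, Rbm26, Prpf40b, Ptbp2 and Acin1. The latter include the 3′ end factors Cpsf6, Cpsf4 and Cpsf1, the m6A reader Ythdf3 and Zc3h13, a subunit of the m6A writer complex. Over all measured genes of each list, the median share at 60 min was 0.850 for the former and 0.919 for the latter. Long noncoding RNAs had 10 members of 36 (27.8%), among them Meg3, Tug1 and Firre, and gene models without a functional name 112 of 427 (26.2%). Zinc finger genes named Zfp (18 of 156, 11.5%) and genes of DNA repair and replication (8 of 71, 11.3%) lay at the share of all measured genes. Kinesin, dynein, centrosome and cilium genes had 15 of 96 (15.6%) and cell adhesion and synaptic genes 9 of 50 (18%).

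Other lists had a lower percentage of members than all measured genes, without a test. None of 87 cytosolic ribosomal protein genes was a member, and their median share at 60 min was 1.01. Members were 3 of 92 translation factors and tRNA synthetases (3.26%), 5 of 141 genes of the mitochondrial respiratory chain and ribosome (3.55%), 3 of 59 chromatin remodelers and histone modifiers (5.08%) and 1 of 18 pluripotency factors (5.56%). That pluripotency gene was Dppa4, a chromatin-bound protein of early embryonic cells, with shares of 0.120 ± 0.0495 at 20 min, 0.502 ± 0.0679 at 60 min and 0.735 ± 0.0508 by 120 min (SD, n = 4). The chromatin gene with the lowest share was Chd4, the remodeling ATPase of the NuRD complex, with 0.166 ± 0.0575, 0.389 ± 0.0442 and 0.613 ± 0.0770 at these times.

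**Figure D2:**
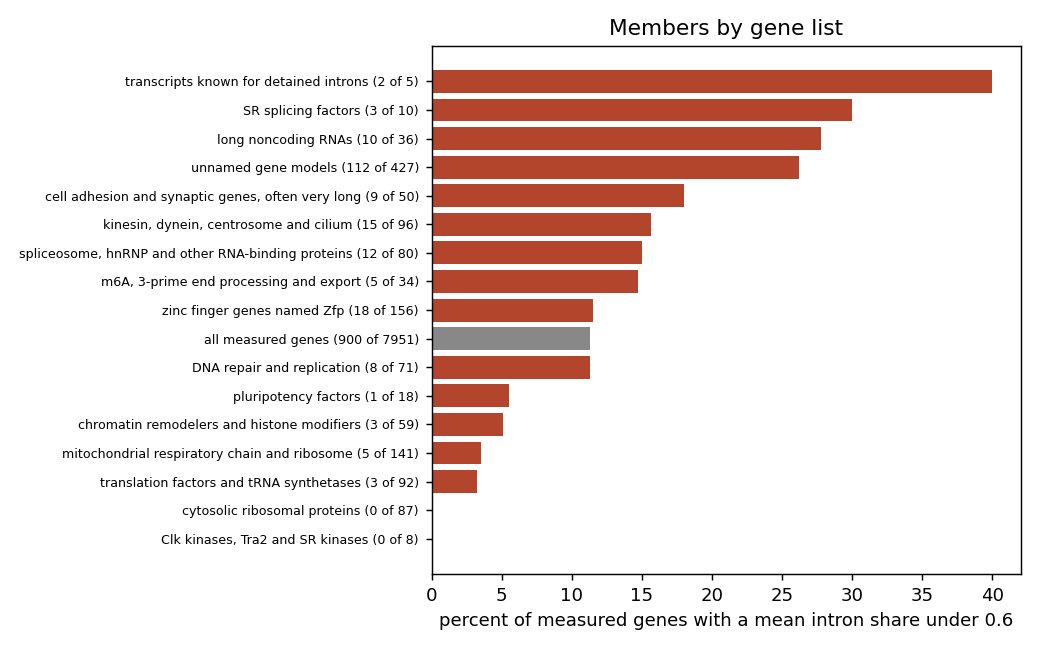
Percent of the measured genes of each list whose mean nuclear intron share at 60 min was under 0.6 (x axis), with the number of members and of measured genes beside each list, and all measured genes in grey at 11.3%. The SR splicing factors stand at 30.0% with 3 of 10 genes, the ribosomal protein genes at 0.

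Srsf5 (ENSMUSG00000021134, chr12:80945504-80950507) encodes an SR protein. Its nuclear intron share was 0.0874 and 0.0559 at 15 min and 0.173, 0.141, 0.211 and 0.161 at 20 min, followed by 0.344 and 0.281 at 30 min and then 0.337 and 0.378 at 40 min. It was 0.623, 0.452, 0.551 and 0.519 at 60 min and 0.879, 0.805, 0.770 and 0.773 at 120 min. The libraries of 15, 20, 60 and 120 min did not overlap, and at 60 min 1 of the 4 libraries, replicate 3, stood above the limit of 0.6. The difference between 120 and 20 min was 0.63 (limma adjusted p = 1.66e-08).

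Srsf10 (ENSMUSG00000028676, chr4:135855747-135869908), a splicing repressor when dephosphorylated, had the lowest mean share of the SR genes at 60 min, with 0.0472, 0.0793, 0.131 and 0.107 at 20 min, 0.391, 0.258, 0.492 and 0.431 at 60 min and 0.666, 0.6, 0.768 and 0.735 at 120 min. Its exons were labeled nearly as much as its introns, with a mean exon share of 0.305 ± 0.0648 against an intron share of 0.393 ± 0.0992 at 60 min. Srsf11 (ENSMUSG00000055436, chr3:158010473-158036639) had 0.0783, 0.0941, 0.174 and 0.150 at 20 min, 0.417, 0.328, 0.685 and 0.625 at 60 min and 0.719, 0.677, 0.853 and 0.867 at 120 min. Both genes were lower in replicates 3 and 4 than in replicates 5 and 6 at 60 and at 120 min, without overlap.

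Luc7l2 (ENSMUSG00000029823, chr6:38551334-38609470), a U1-associated splicing factor, remained low at 120 min. Its intron share was 0.122, 0.179, 0.231 and 0.197 at 20 min, 0.3, 0.377, 0.473 and 0.430 at 60 min and 0.352, 0.283, 0.555 and 0.456 at 120 min. The 60 and 120 min libraries overlapped. The rise from 20 to 120 min was 0.23 (limma adjusted p = 0.00376). Other RNA-binding protein genes had higher values: at 120 min Ddx17 had 0.803 ± 0.0351, Ddx39b 0.802 ± 0.0136, Hnrnph1 0.776 ± 0.0705, Ewsr1 0.847 ± 0.0541 and Snrnp70 0.688 ± 0.0808 (SD, n = 4), from 60 min values of 0.403, 0.510, 0.473, 0.547 and 0.498.

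Ogt (ENSMUSG00000034160, chrX:101640060-101684351) encodes the O-GlcNAc transferase and is known for a detained intron that responds to O-GlcNAc levels. Its share was 0.198, 0.181, 0.258 and 0.226 at 20 min, 0.457, 0.519, 0.699 and 0.654 at 60 min and 0.808, 0.748, 0.788 and 0.825 at 120 min. Gabbr1 (ENSMUSG00000024462, chr17:37045966-37075067), a GABA-B receptor subunit, had 0.101, 0.117, 0.169 and 0.103 at 20 min, 0.524, 0.431, 0.489 and 0.386 at 60 min and 0.814, 0.875, 0.918 and 0.845 at 120 min. In both genes all 120 min libraries lay above all 60 min libraries, and in both the exons were labeled less than the introns at 60 min, with 0.266 ± 0.0648 in Ogt and 0.143 ± 0.0160 in Gabbr1.

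**Figure D3:**
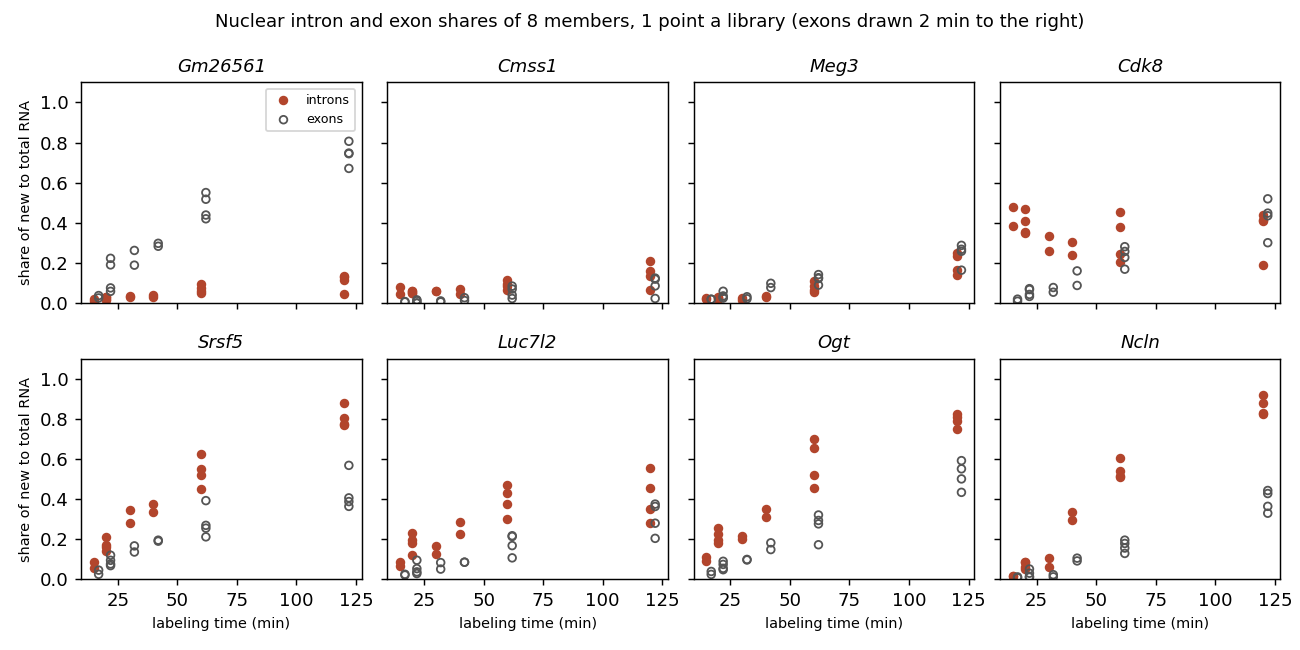
Share of new to total RNA (y axis) against labeling time (x axis, min) in the nuclear libraries for 8 members, with introns as filled and exons as open points, 1 point a library. Srsf5, Ogt and Ncln rise to between 0.748 and 0.917 in their introns at 120 min, Luc7l2 stays at or under 0.555, and the introns of Gm26561, Cmss1 and Meg3 stay under 0.25, while Cdk8 starts high and shows no rise.

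A smaller set of 49 members was still at a mean share under 0.4 at 120 min. The mean share at 120 min was under 0.2 in 14 members, between 0.2 and 0.4 in 35, between 0.4 and 0.6 in 95, between 0.6 and 0.8 in 425 and 0.8 or more in 331. Of the 7051 other genes, 6878 (97.5%) were at 0.8 or more and none was under 0.4. The 49 members under 0.4 at 120 min were protein coding in 79.6%, against 90.1% of the other 851 members. Their median length was 73.5 against 25.0 kb, their median nuclear CPM at 120 min 2.92 against 24.8, and 59.2% against 30.5% overlapped another gene on the same strand; these are descriptions without a test. The part of overlapping genes in these shares was not tested.

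The 12 members with the lowest shares at 60 min, all under 0.1, were Gm19951, Tmem56, Gm26561, Dock8, Gm15564, Meg3, Gphn, Peak1, Slc36a2, Kcnip1, Cmss1 and Ssh2. They are of unlike function: Dock8 is an exchange factor of immune cells, Gphn a scaffold of inhibitory synapses that also makes molybdenum cofactor, Peak1 a pseudokinase, Slc36a2 an amino acid transporter, Kcnip1 a potassium channel subunit and Ssh2 a cofilin phosphatase. Several had few exonic reads in the nucleus, with a mean CPM of 0 in Kcnip1, 0.0170 in Gm26561, 0.0361 in Gm19951, 0.0879 in Slc36a2, 0.589 in Dock8 and 1.77 in Tmem56 (60 min left out). The others lay between 14.3 in Gphn and 427 in Meg3. Whether the intronic T came from transcripts of the named genes was not tested. Meg3 (chr12:109541001-109571726), an imprinted long noncoding RNA, was among them with 0.0632, 0.0552, 0.112 and 0.0832 at 60 min and 0.139, 0.167, 0.247 and 0.234 at 120 min. Its exons were little labeled as well, with 0.120 ± 0.0221 at 60 min and 0.244 ± 0.0550 at 120 min, and its rise from 20 to 120 min was 0.17 (limma adjusted p = 0.0069).

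Of the 8 members with the most intronic T positions, all but Gm26624 had a mean share under 0.4 at 120 min. At 60 min the mean T count in introns was 4452770 in Gm26561 (ENSMUSG00000097625, chr17:70878078-71393284), a noncoding gene model of 515 kb, 3708510 in Cmss1 (ENSMUSG00000022748, chr16:57302000-57606864) and 1881470 in Cdk8 (ENSMUSG00000029635, chr5:146231230-146302874), a kinase of the Mediator complex, against a median of 12448 over members. Gm26561 had intron shares of 0.0582, 0.0476, 0.0967 and 0.0730 at 60 min and 0.130, 0.0470, 0.115 and 0.134 at 120 min. Cmss1 had 0.0869, 0.0669, 0.117 and 0.0949 and then 0.212, 0.0633, 0.134 and 0.160. In both genes the 60 and 120 min libraries overlapped, and neither rose from 20 to 120 min by the test (limma adjusted p = 0.144 and 0.136).

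The intronic T counts of these genes swung between libraries. Over the 18 nuclear libraries they ranged from 465038 to 8950975 in Gm26561, 19.2-fold, and from 483421 to 7263377 in Cmss1, 15.0-fold. Members with fewer intronic T swung less or more than these 2 genes. The counts ranged from 103019 to 1004364 in Srsf5, 9.75-fold, and from 9513 to 215054 in Gabbr1, 22.6-fold. A wide swing was thus not particular to the genes with the most intronic T. The counts were not scaled to the library, and all intronic T of a nuclear library ranged from 123678940 to 680259577. Together, the 8 members with the most intronic T (Gm26561, Cmss1, Cdk8, Peak1, Gphn, Gm26624, Camk1d and Gm19951) held between 1.19% and 24.3% of all intronic T in a nuclear library, and up to 35.6% in the cytosol and 37.3% in the membrane fraction. All 900 members held 13.1% to 35.9% in the nucleus.

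In these genes the counted reads, which are those on exons, and the intronic T positions did not run in parallel. Gm26561 has 1413 bases of exon in 515 kb and overlaps 7 others on the same strand. It had 0.0170 ± 0.0257 CPM in the nucleus (SD, n = 14 libraries other than 60 min), whereas Cdk8 had 94.3 ± 19.8, Peak1 80.9 ± 10.8 and Camk1d 52.5 ± 7.21. In the cytosol, the intron shares of these 8 members had a median of 0.0213 ± 0.00396 at 20 min, 0.0185 ± 0.00590 at 60 min and 0.0233 ± 0.0124 by 120 min, while the median over all members went from 0.0598 to 0.620. Of the 8, 5 had a higher mean at 120 than at 20 min. How the reads of these introns were placed on the genome was not tested.

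The conversions themselves were also compared between times, without division by the conversion rate. The mean raw percentage of intronic T read as C rose by a median of 13.6-fold from 20 to 120 min in members and 6.39-fold in the other genes, while the mean conversion rate rose 2.38-fold. It rose less than 2-fold in 3 members (0.333%) and in 3 of the other genes (0.0425%). Slc36a2 went from 0.458% to 0.448% and stayed between 0.364% and 0.515% in all 18 nuclear libraries. Cdk8 ranged from 1.02% to 4.25% in the nucleus, with means of 1.04% at 15 min and 2.47% at 120 min, and from 0.983% to 1.43% in the 18 cytosolic libraries, whose conversion rates ran from 2.07% to 11.4%. Mylpf, a muscle myosin light chain, rose in the nucleus from a mean of 0.595% at 15 min to 2.78% at 40 min and had 2.29% at 120 min. Of the 3, Slc36a2 alone was flat over all times in the nucleus. Since the share is this percentage over the conversion rate, a flat percentage gives lower shares where the rate is higher. Slc36a2 had shares of 0.191 and 0.187 at 15 min and of 0.0420, 0.0371, 0.101 and 0.130 at 120 min, the lower pair in replicates 3 and 4, with the higher conversion rates. Cdk8 had 0.479 and 0.383 at 15 min, and 0.410, 0.187, 0.414 and 0.441 at 120 min.

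**Figure D4:**
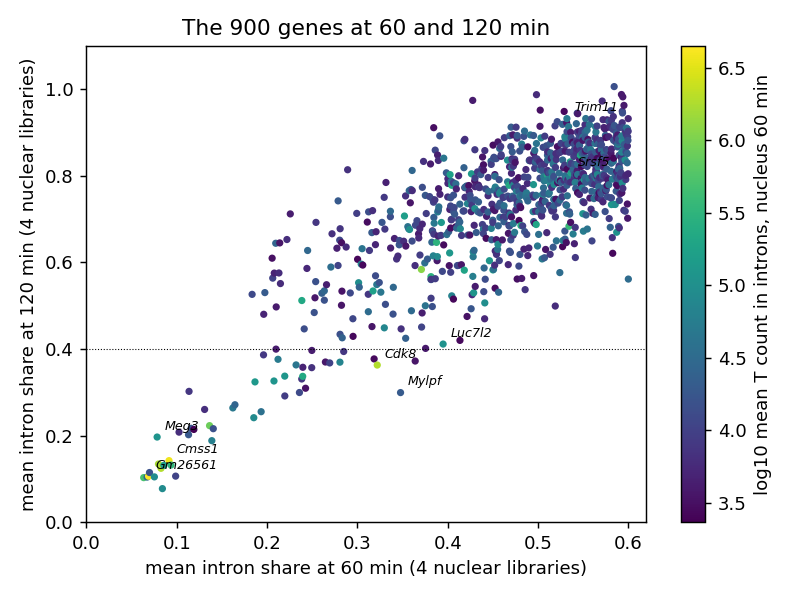
Mean nuclear intron share at 60 min (x axis) against that at 120 min (y axis, both over 4 libraries) for the 900 members, colored by the log10 of the mean intronic T count at 60 min, with a dotted line at 0.4. The 49 members below the line include Gm26561 and Cmss1, which have the most T counts, and the bulk of the members lies above 0.6 at 120 min.

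The rise of the share with time was tested between the nuclear libraries of 120 and 20 min (limma, 4 against 4 libraries, adjusted p under 0.05), none of which chose the members. Over all 11571 genes tested, 95.5% rose and 0.0951% fell. Of the 900 members, 865 rose and 1 fell, with a median difference of 0.63 against 0.60 over all genes tested. A split by the share at 120 min uses libraries of the test itself, so that fewer rises in the lower group were set in advance. By this split, 844 of the 851 members at 0.4 or more rose, and 21 of the 49 below. Examples were Trim11, a ubiquitin ligase, with a difference of 0.87 ± 0.05 (SE), Cpsf4 with 0.81 ± 0.04 and Ogdhl, an oxoglutarate dehydrogenase-like enzyme, with 0.82 ± 0.04 (limma adjusted p = 6.59e-09 for each). Trim11 had 0.0505, 0.0379, 0.0810 and 0.0722 at 20 min and 0.884, 0.891, 0.982 and 0.972 at 120 min. Mylpf was the member that fell, by 0.15 (limma adjusted p = 0.0332), and it lost this call in 6 of the alternative fits. With the 120 min libraries of replicates 5 and 6 alone 858 members rose, and with those of replicates 3 and 4 alone 868.

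Pre-mRNA precedes mRNA, so that introns are usually labeled before the exons of the same gene, and the size of that lead was measured within each nuclear library of 15 to 40 min. It was tested with limma over 10 libraries, with labeling time as a factor. In 97% of the genes tested the introns had the higher share, and in 0.233% the lower. Of the 830 members with at least 400 T counts in exons and introns in each library, 744 (89.6%) had the higher share in introns and 10 (1.2%) the lower. The median lead was 0.11 in members, against 0.29 over all genes tested and 0.32 in the other measured genes.

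Members with a large lead of introns over exons were Zc3h13 (0.33 ± 0.02, SE) and Unc45a, a myosin chaperone (0.29 ± 0.02), with limma adjusted p of 4.82e-08 and 5.42e-08. In Zc3h13 the exon share was still 0.0688 ± 0.0148 at 60 min. The 10 members whose introns were older than their exons include Gm6445, a pseudogene, by 0.20, Gm26561, by 0.14, and Zfp791, a zinc finger gene, by 0.24 (limma adjusted p = 2.78e-07, 1.55e-05 and 2.3e-05). In Gm26561 the exon share was 0.482 ± 0.0624 at 60 min beside an intron share of 0.0689 ± 0.0213. This gene overlaps 7 others on the same strand and had 0.0170 CPM in the nucleus, so that its exonic T positions cannot be told apart from those of overlapping genes. The difference in Srsf10 was −0.00132 ± 0.0101 (limma adjusted p = 0.9).

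Per length, introns of members were more abundant relative to exons than those of the other genes, in every fraction. The density ratio (intronic T per kb of intron over exonic T per kb of exon) had a median over members of 28.8% ± 5.98 in the nucleus, 9.01% ± 3.37 in the cytosol and 7.71% ± 2.13 in the membrane fraction (SD over 14 libraries each, 60 min left out). The other genes had 9.34% ± 2.92, 1.86% ± 0.840 and 1.69% ± 0.619. In each of the 3 fractions the 14 medians of members and of the others did not overlap. The nuclear 20 min library of replicate 3 had the highest values of the nucleus in both, 41.3% and 16.6%. The rule set a minimum of T in introns and none in exons, so that a gene with few exonic reads was measured only with many intronic T. Median intronic T at 60 min was 12448 in members and 11505 in the others, and median nuclear CPM at 120 min was 23.8 and 55.0. The part of this filter in the density ratios was not tested.

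**Figure D5:**
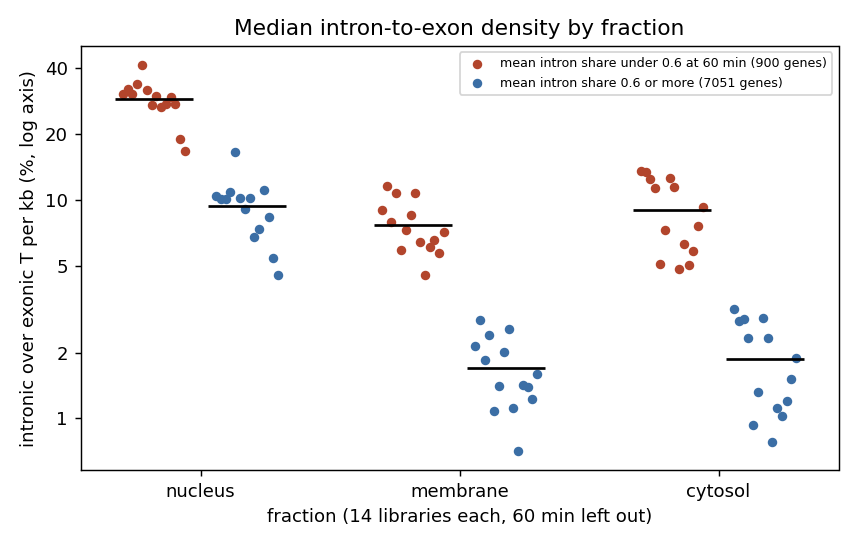
Median density ratio of intronic over exonic T per kb (y axis, percent, log axis) in the nuclear, membrane and cytosolic libraries (x axis, 14 libraries each, 60 min left out), 1 point a library, with bars at the mean, for members and other measured genes. In the nucleus the members average 28.8% and the others 9.34%, and both are lower in the membrane fraction and the cytosol.

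Nucleus and cytosol were then compared by the log2 ratio of intronic to exonic T counts in limma (adjusted p under 0.05, absolute log2 difference over 1, 14 against 14 libraries, 60 min left out). Of all genes tested, 88.2% were higher in the nucleus and 0.181% higher in the cytosol. Of the 900 members, 768 had enough T counts for the test, of which 579 (75.4%) had the higher ratio in nuclear and 8 in cytosolic RNA. The median log2 difference was 1.85 in members, 2.48 over all genes tested and 2.58 in the others. Relative to the median gene, that is with each library centred on it, 46 members had the higher ratio in the nucleus and 273 in the cytosol. Centring places genes on both sides, and the shares over all genes tested are not given for this fit. These counts are therefore not read as particular to the members. In these bulk libraries the ratio is an average over the cells of a culture, so that differences between single cells are not resolved.

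Introns of single members were divided unlike between nucleus and cytosol. Map2k5, a MAP kinase kinase, was higher in the nucleus by 3.82 ± 0.15 on the log2 scale (SE), Ciz1, a nuclear matrix protein, by 3.76 ± 0.17 and Rtel1, a telomere helicase, by 3.64 ± 0.16 (limma adjusted p at most 1.64e-17). B130055M24Rik, a noncoding gene, had the ratio higher in the cytosol, with a log2 difference of −3.48 ± 0.18, as did Clock, the circadian transcription factor, with −1.87 ± 0.11 (limma adjusted p at most 1.98e-15). The SR members were higher in the nucleus, by 1.1 in Srsf10, 2.26 in Srsf11 and 2.29 in Srsf5, and Ogt and Gabbr1 by 1.18 and 1.33. Gphn, Cdk8 and Camk1d differed by −0.05 ± 0.43, 0.26 ± 0.37 and 0.19 ± 0.38, with limma adjusted p of 0.912, 0.5 and 0.628, and Gm26561 by −0.43 ± 0.42.

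The membrane fraction was compared with the cytosol by the same ratio. Of all genes tested, 7.1% were higher and 15.5% lower in the membrane fraction, and of the 768 members tested 22 (2.86%) and 113 (14.7%). Examples of lower members were Tmem63b, a membrane channel, at −3.84 and Ncln, an endoplasmic reticulum membrane protein, at −3.64 on the log2 scale (limma adjusted p at most 2.52e-16). Their median intronic T counts were 3127 and 2780.5 in the cytosol and 2702.5 and 2244.5 in the membrane fraction. The ratio of these genes thus differed mainly through exonic T. Between nucleus and cytosol their log2 differences were 0.82 and 0.53. Lyrm4, a factor of iron-sulfur cluster assembly, was higher in the membrane fraction by 3.98, Fam53b by 2.25 and Gm30228 by 1.75 (limma adjusted p at most 6.95e-09).

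Exonic reads of members lay more in the nucleus. Gene counts, which are of reads on exons and are held separately from the T counts, were compared with edgeR (adjusted p under 0.05, absolute log2 fold change over 0.5, 60 min left out). Of all genes tested, 36.3% were higher in the nucleus and 30.8% higher in the cytosol. Of the 834 members that passed the filter on low counts, 460 (55.2%) had more reads in nuclear and 103 (12.4%) in cytosolic libraries, against 30.0% and 34.9% of the other measured genes. The median log2 fold change of nucleus over cytosol was 0.64 in members, 0.03 over all genes tested and −0.12 in the others.

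Among members higher in the nucleus were Ank3, a large membrane scaffold (log2 fold change 2.64 ± 0.10, SE), Gnptg, a subunit of the enzyme that tags lysosomal proteins (3.17 ± 0.13), and Pign, an enzyme of GPI anchor synthesis (1.87 ± 0.08), with edgeR adjusted p at most 2.06e-17. Ank3 had 78.8 ± 12.4 CPM in the nucleus and 10.8 ± 3.47 in the cytosol (SD, n = 14). Higher in the cytosol were Snx12, a sorting nexin (−1.87 ± 0.07), Ppdpf (−1.85 ± 0.07) and Snrpn, a core protein of spliceosomal particles whose gene overlaps others (−1.46 ± 0.07, edgeR adjusted p at most 4.81e-16). Of the members on the SR and detained intron lists, Gabbr1 and Ogt were higher in the nucleus by 2.57 and 1.72, whereas Srsf5, Srsf10 and Srsf11 had 0.10, 0.24 and −0.16, with edgeR adjusted p of 0.29, 0.0997 and 0.258.

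The members shared some features of annotation that the rule had not used. Of the 897 members found in GENCODE M21, 803 (89.5%) were protein coding, against 97.1% of the other genes. By type, 33.3% of 105 measured lincRNA genes, 35.8% of 53 antisense genes and 21.8% of 87 processed transcript genes were members, against 10.5% of 7637 protein-coding genes. Genes that overlap others on the same strand are less certain, since reads can be shared. The paper describes strand-specific libraries, and whether antisense genes shared reads with genes on the opposite strand was not tested. Members differed little in structure, with a median length of 25.7 kb against 30.5 kb, a median of 11 exon blocks in both and a same-strand overlap in 32.1% against 27.9%. Over classes of gene length, the percentage of members was 14.1% under 5 kb, 10.5% between 20 and 50 kb, 9.54% between 100 and 200 kb and 13.8% above 200 kb. At 120 min the median CPM of members was 23.8 in the nucleus and 12.9 in the cytosol, against 55.0 and 44.9 in the others.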

How the data were processed

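RNA-seq libraries of nuclear, cytosolic and membrane fractions were used (18 each), and whole-cell libraries only for markers. Per the labels, the authors ran STAR 2.7.6, HTSeq 0.11.1 and RSEM 1.3.3; their methods give GRCm38 with GENCODE M14, whereas gene models here were from GENCODE M21 of the same build, which held 7936 of the 7951 measured genes. The deposited files held HTSeq read counts per gene and, for exons and introns of each gene, counts of T positions and of those read as C, with sequence variants of the line removed by the authors. The authors also estimated a conversion rate per library, deposited as a fraction, and the deposited T2C/T ratio differed from the recomputed one by at most 1.42e-13. Shares were T2C over T over that rate.

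Shares and log2 ratios of intronic to exonic T (pseudocount 1, at least 400 T in every library of a test) were tested with limma 3.58.1, gene counts with edgeR's quasi-likelihood test (4.0.16, TMM), in R 4.3.3. P-values were adjusted by Benjamini-Hochberg over all genes tested, with 0.05 as threshold, plus an absolute log2 difference over 1 for T ratios and over 0.5 for counts. The 60 min libraries were left out of comparisons of fractions. Scripts were tested on simulated data. Python 3.11.15, numpy 2.4.6, pandas 2.3.3 and matplotlib 3.10.9 were used. Alternatives were other filters, pseudocounts, normalizations, DESeq2 1.42.0, a replicate block and leaving out replicates.

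Named genes were the 12 members with the lowest shares at 60 min, the 8 with the most intronic T, the 3 with the smallest p in each direction of each test, the 3 genes on each side of the limit, the lowest member of each list, and the members among SR factors, Clk kinases and detained introns; other members of a list were named with values as examples. Some genes that this rule names are not reported here. Members and lists were chosen with earlier results of these data known. Replicates were separately passaged cultures. Fractions of the same time and replicate came from one culture. The deviations of nucleus and cytosol from their group means correlated at −0.0329 to 0.656 in gene counts (median 0.236, over 0.1 in 10 of 14 pairs). At 15, 30 and 40 min, with 2 replicates each, both pairs of a time give the same value by construction. The 14 pairs are therefore not all distinct values. Reads carried no molecular identifiers, so that counts are not independent molecules, and errors are spreads between libraries.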

Additional observations from a re-analysis of the deposited data

Results flagged for a closer look

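In 219 groups of 4 libraries, the gap of the farthest library to the nearest other one was divided by the range of the 4, and it exceeded Dixon's critical value in 10, where chance gives about 1 in 20 groups. The median log2 ratio of intronic to exonic T in the other measured genes was 1 such case at 20 min (0.858), with −0.19 in replicate 3 and −0.91 to −0.81 in the other 3, and another at 60 min (0.958), with −0.86 in replicate 3 and −2.20 to −2.14 in the other 3. Among intron shares, the value was 0.839 for Peak1 at 60 min, 0.941 for Slc36a2 at 20 min, where replicate 1 had 0.184, and 0.877 for Cdk8 at 120 min, where replicate 4 had 0.187. Camk1d gave 0.919 at 60 min and 0.885 at 120 min, and in both times replicate 3 was high, with 0.189 and 0.462. Zfp791 gave 0.906 at 20 min, with 0.317 in replicate 4. Clock gave 0.935 at 60 min, with 0.747 in replicate 3, and Chd4 gave 0.885 at 120 min, with 0.728 in replicate 3.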

How the results depend on the processing

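The number of members followed the rule: 569 genes passed with a higher minimum of T in introns, 473 with a share under 0.5 and 1643 under 0.7, and replicates 3 and 4 alone, an alternative chosen after seeing the data, gave 1417. Leaving out 1 of the 4 replicates gave 829 to 1136. Centred on the median gene, the ratio of nucleus to cytosol had 46 members higher and 273 lower, in place of 579 and 8. The shares over all genes tested are not given for this centred fit. The 1 member that fell between 20 and 120 min, Mylpf, was lost on the log2(share + 0.01) scale and without a filter on T (0 in each by limma, and 0 at an unadjusted p under 0.05), and leaving out 1 replicate gave 0 to 1, with 0 without replicate 3, 4 or 6. With the 120 min libraries of replicates 5 and 6 alone, 858 members rose and 1 fell, and with those of replicates 3 and 4 alone 868 and 1, the latter not Mylpf; both were chosen after seeing the data. With the replicate block, the fits had 735 members with introns above exons and 9 below, 579 and 8 for nucleus against cytosol, 462 and 104 for gene counts, and 849 that rose with time; it moved no count by over 1.5 times. DESeq2 gave 461 and 104 members by gene counts. The other counts of members stayed within 1.5 times of those reported (112 values, against 11 that did not), and of the values for single genes the 6 that lost a call were those of Mylpf. Depth limits genes with few intronic T positions, which were not measured.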
